A study of Bos taurus with 24 samples.

Results

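Bovine ovarian follicles with high transcript levels of the sterol enzymes SQLE and IDI1 were compared with follicles with low levels. The groups were chosen by measured values: the 16 follicles of the series were ranked by the mean of their SQLE and IDI1 levels, and the 5 highest were set against the 5 lowest, so 10 of 16 follicles entered and 6 lay in the middle. The high group held follicles H893, 861, C12, C22 and C35, and the low group held follicles 46, 31, J980, C26 and C32. Both groups were then described across the 9024 other genes measured.

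Cholesterol is built from acetyl-CoA by way of mevalonate. Mevalonate is phosphorylated and decarboxylated to an isoprene unit, which IDI1 isomerises and FDPS joins into farnesyl diphosphate. FDFT1 joins farnesyl diphosphate into squalene, SQLE oxidises squalene, and later enzymes trim the ring system of lanosterol into that of cholesterol. SREBP transcription factors, which SCAP and INSIG proteins hold in the endoplasmic reticulum while sterol is plentiful, control most of these genes together, and in the ovarian follicle cholesterol is the substrate of steroid hormones.

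Each follicle was the largest of 1 heifer and was 8 to 12 mm in diameter. Follicle RNA was measured on 24 two-colour arrays that each took 5 µg of total RNA from either of 2 follicles, and every follicle was on 3 arrays. Treatment, stage, breed and age are not in the labels, which name each follicle by an identifier, so by its labels the high group is described exactly as the low group is. Identifiers that start with C belonged to 3 of the 5 high, 2 of the 6 middle and 2 of the 5 low follicles.

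A level here is a log2 value relative to the mean of the 16 follicles, so it compares follicles for 1 gene and not genes with each other. The base is taken as log2 and the ratio as Cy5 over Cy3, which is likely from the labels but not stated. With the inverse ratio the high and the low group would change places, and the sign of every high minus low difference would stay the same. Arrays had 16094 to 17028 values, and their number limits the precision: the median SE of a level was 0.13. Follicle J980 of the low group stood apart, since it had the lowest or the highest level of all 16 follicles in 29% of genes, against 7.81% to 15.1% in the others, and results that rest on it are given with and without it. Each heifer gave 1 follicle, and the p-values rest on the spread of the fitted levels between these follicles. That spread holds array error as well as differences between follicles. Follicles on the same array also share error, which the main fit leaves out. In RNA of a whole follicle, fewer cells of a type and less RNA per cell cannot be told apart.

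SQLE, squalene epoxidase, had levels of 1.19 in H893, 0.85 in 861, 0.67 in C12, 0.44 in C22 and 0.24 in C35. In the low group it had -0.28 in follicle 46, -0.71 in 31, -0.92 in J980, -0.88 in C26 and -1.12 in C32. IDI1, isopentenyl diphosphate isomerase, had 0.76, 0.59, 0.35, 0.53 and 0.46 in the same high follicles and -0.75, -0.64, -0.48, -0.55 and -0.72 in the same low follicles. SQLE thus formed a slope over the follicles, while IDI1 formed steps with the middle follicles close together. The mean of both genes was 0.35 in C35, the last of the high group, and 0.33 in C13, the first of the middle, so the upper limit fell within a continuum. At the lower limit the mean was -0.035 in follicle 27 and -0.52 in follicle 46, a wide gap. Ranking by IDI1 alone gave the same 10 follicles, and ranking by SQLE alone put C13 in the place of C35. These values chose the groups and carry no test. The levels of SQLE, of IDI1 and of all other genes come from the same arrays, so array error that genes share enters both the ranking and the tests.

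**Figure D1:**
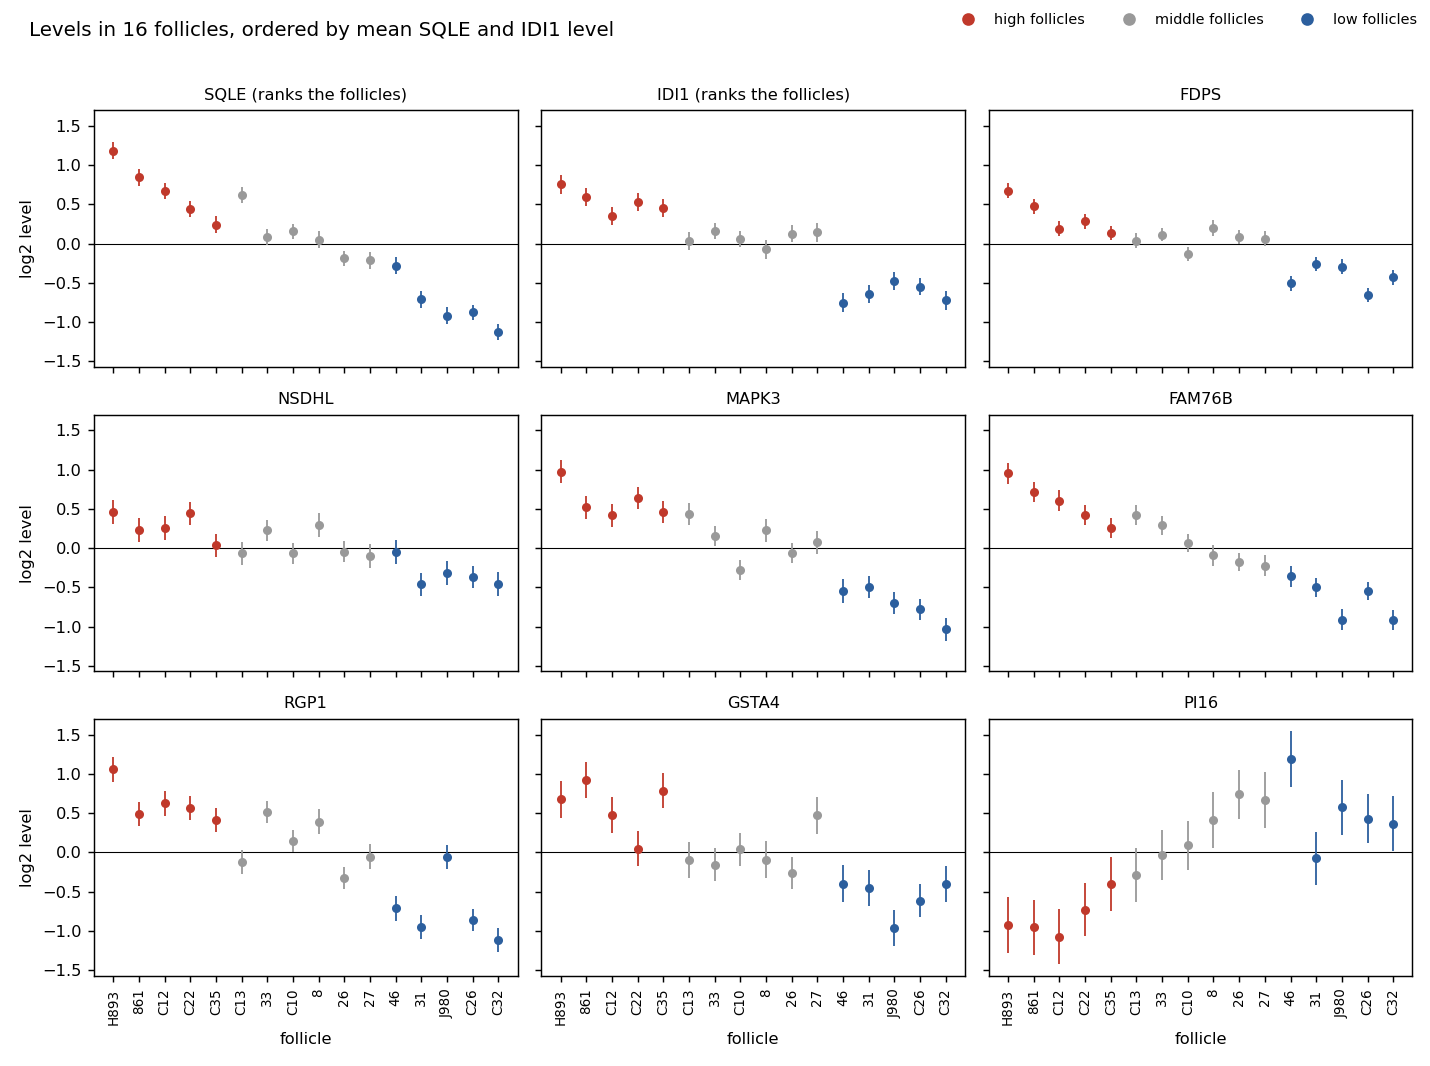
Log2 level (vertical axis) of SQLE, IDI1 and the 7 genes that differed between high and low follicles, in each of the 16 follicles (horizontal axis) ordered by their mean SQLE and IDI1 level; points are estimates and bars are their SE from array error. FDPS, MAPK3, FAM76B, RGP1, GSTA4 and NSDHL lie higher in the 5 high follicles than in the 5 low ones, and PI16 lies lower.

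Of the 9024 genes, 7 differed between high and low follicles by limma with Benjamini-Hochberg adjustment at 0.05, which is 0.0776% of the genes tested. There were 6 genes higher in the high follicles (0.0665%) and 1 lower (0.0111%). The sterol enzymes FDPS and NSDHL were among the 6, beside MAPK3, FAM76B, RGP1 and GSTA4, and the lower gene was PI16. At an unadjusted p under 0.05, 406 genes were higher (4.5%) and 354 lower (3.92%). The count of 7 depended on single arrays. Without the array of C26 with follicle 33, limma gave 0 genes past the threshold and 393 at an unadjusted p under 0.05, and without the array of C10 with follicle 26 it gave 3 genes and 303. MAPK3 then had an adjusted p of 0.0787 and FAM76B one of 0.069 without the array of C26 with follicle 33, and neither call was lost under any other setting tried in which the gene could be tested.

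**Figure D2:**
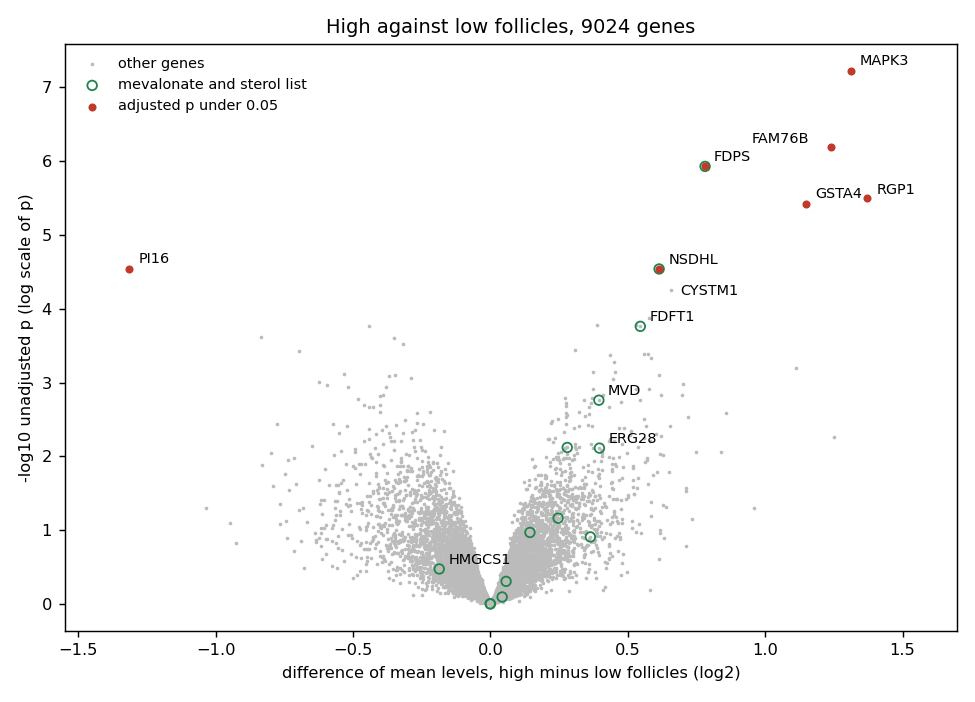
Difference of the mean log2 level between 5 high and 5 low follicles (horizontal axis) against the negative log10 of the unadjusted limma p (vertical axis) for 9024 genes. Red points are the 7 genes with an adjusted p under 0.05, and green rings are the 14 measured enzymes of mevalonate and sterol synthesis other than SQLE and IDI1, most of which lie to the right of 0.

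FDPS, farnesyl diphosphate synthase, acts just after IDI1. Its levels were 0.68 in H893, 0.48 in 861, 0.19 in C12, 0.29 in C22 and 0.14 in C35, against -0.50 in follicle 46, -0.26 in 31, -0.29 in J980, -0.65 in C26 and -0.43 in C32. All high follicles were above all low ones, and the middle follicles, from -0.13 to 0.20, overlapped with the lower end of the high group only. The mean was 0.35 ± 0.22 (SD, n = 5) in the high and -0.43 ± 0.16 in the low group, a difference of 0.78 ± 0.10 (SE) or 1.72-fold (limma, adjusted p = 0.00355). Both array features of FDPS were higher, by 0.67 and 0.89.

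NSDHL, which removes a methyl carbon from the sterol ring, had levels of 0.46 in H893, 0.23 in 861, 0.25 in C12, 0.44 in C22 and 0.033 in C35. The low follicles had -0.045 in follicle 46, -0.46 in 31, -0.32 in J980, -0.37 in C26 and -0.46 in C32. The groups did not overlap, although C35 and follicle 46 nearly met. The difference was 0.61 ± 0.11 (SE; limma, adjusted p = 0.0372), and the 2 features of the gene disagreed in size, at 0.36 and 0.87. The call was kept in 25 of 52 alternative settings, and leaving out 1 of the 10 follicles ended it in 8 of 10 cases.

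Among the other enzymes of the pathway the squalene and decarboxylation steps were next in line. FDFT1, squalene synthase, had 0.19 in H893, 0.20 in 861, 0.13 in C12, 0.39 in C22 and 0.41 in C35, against -0.39 in follicle 46, -0.40 in 31, 0.13 in J980, -0.36 in C26 and -0.37 in C32. J980 alone was level with the high group, and the other low follicles were far below it. The difference of 0.55 ± 0.11 missed the threshold with J980 (limma, adjusted p = 0.12), and with J980 and its arrays left out it was 0.65 ± 0.061 and passed (adjusted p = 2.26e-04). The 3 features of FDFT1 differed by 0.66, 0.087 and 0.89.

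MVD, mevalonate diphosphate decarboxylase, followed the same pattern. It had 0.45 in H893, 0.074 in 861, 0.21 in C12, 0.20 in C22 and 0.24 in C35, against -0.27 in follicle 46, -0.33 in 31, 0.26 in J980, -0.24 in C26 and -0.22 in C32. J980 again sat with the high follicles. The difference was 0.39 ± 0.10 (limma, adjusted p = 0.307) and 0.50 without the level of J980, when it passed. With J980 and its arrays left out and the follicles ranked again, FDFT1 passed and MVD did not.

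Of the 22 genes listed for this pathway besides SQLE and IDI1, 14 were measured. Of the 14, 2 were called higher and 0 lower, and 6 were higher at an unadjusted p under 0.05: FDPS, NSDHL, FDFT1, ERG28, MVD and HSD17B7. ERG28, a scaffold of the demethylation complex, differed by 0.40 ± 0.13, and HSD17B7, a ketoreductase of the same stretch, by 0.28 ± 0.091. In 3 of the 14 all high follicles were above all low ones, against 0.609% of all genes. In 11 of 14 the difference was positive, with a median of 0.26, against 48.9% and a median of -0.0026 over all genes.

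The list was chosen with results for these genes known, so its counts describe it and carry no test. Its mean level lay from 0.080 to 0.20 in the high, from -0.048 to 0.049 in the middle and from -0.21 to -0.030 in the low follicles, so as a whole the other enzymes were ordered like the groups. J980, at -0.030, lay within the range of the middle follicles, and without its level the median difference was 0.29. Not every measured enzyme showed the difference. HMGCS1, which makes HMG-CoA, differed by -0.19 ± 0.19, and its highest level of all was 0.71 in the low follicle C26. It had 1 feature, and the SE of its levels ran from 0.20 to 0.47, so it was measured imprecisely. DHCR7 and PMVK, which act at the end and near the start, differed by -5.66e-04 ± 0.089 and -8.61e-04 ± 0.057. PMVK levels ran from -0.13 to 0.17 with SEs of 0.14 to 0.16, so they could not be told from array error. EBP, a sterol isomerase, had features at -0.10, -0.065 and 0.42, and a gene value of 0.057 ± 0.081.

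**Figure D3:**
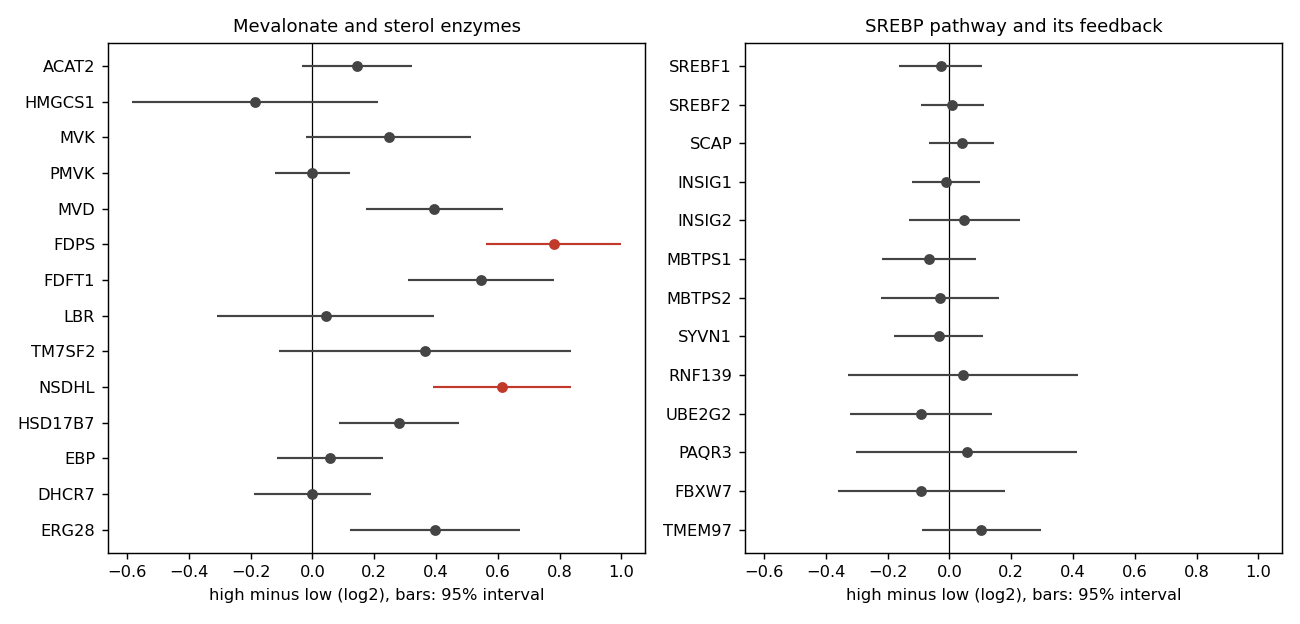
Difference of mean log2 level, high minus low follicles (horizontal axis), with its 95% interval, for the measured enzymes of mevalonate and sterol synthesis in pathway order (left) and for the SREBP factors and their feedback genes (right); red marks an adjusted p under 0.05. FDPS and NSDHL reach 0.78 and 0.61, while every gene on the right lies between -0.091 and 0.10.

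The measured regulators of the pathway showed no such differences. Of 19 genes of the SREBP system, 13 were measured, 0 were called by limma and 0 had an unadjusted p under 0.05. Over all genes 0.0776% were called and 8.42% had an unadjusted p under 0.05, so counts of 0 among 13 genes say little. Their differences ran from -0.091 for UBE2G2, an enzyme of ER protein degradation, to 0.10 for TMEM97, a sterol-responsive membrane protein. SREBF2, the factor that drives sterol genes, differed by 0.0087 with a 95% interval of -0.094 to 0.11. INSIG1, itself a target of that factor, differed by -0.011 with an interval of -0.12 to 0.099, and SCAP by 0.040 with an interval of -0.065 to 0.15. These intervals lie below the differences of FDPS and NSDHL, although no test compared the genes with each other. SREBF2 levels ran from -0.049 to 0.13 with SEs of 0.075 to 0.085. INSIG1 levels ran from -0.14 to 0.099 with SEs of 0.079 to 0.090, each gene from 1 feature. Both thus varied over the follicles about as much as array error, and a flat difference does not show that they were unchanged. ERLIN2, an ER membrane protein that takes part in protein degradation there, was outside this list. It had -0.095, -0.21, -0.31, -0.11 and -0.38 in H893, 861, C12, C22 and C35, and 0.27, 0.26, -0.067, 0.16 and 0.035 in follicles 46, 31, J980, C26 and C32. The groups did not overlap, and the difference of -0.35 ± 0.075 did not pass (limma, adjusted p = 0.15; it passed without the level of J980).

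MAPK3 and FAM76B, the 2 genes of smallest p by limma, lay outside the pathway, and FDPS came next. MAPK3, the kinase ERK1 of the growth factor cascade, had 0.97 in H893, 0.52 in 861, 0.42 in C12, 0.63 in C22 and 0.46 in C35, against -0.55 in follicle 46, -0.50 in 31, -0.70 in J980, -0.78 in C26 and -1.04 in C32. The groups were far apart and the smallest gap between them exceeded the SD within either. The difference was 1.31 ± 0.14 or 2.48-fold (limma, adjusted p = 5.38e-04), from 1 feature. FAM76B had 0.96, 0.71, 0.61, 0.42 and 0.26 in the same high follicles and -0.36, -0.50, -0.91, -0.55 and -0.92 in the same low follicles. The groups did not overlap, and the middle follicles C13 and 33, at 0.42 and 0.29, lay within the range of the high group. The difference was 1.24 ± 0.15 (limma, adjusted p = 0.0029), and its 2 features gave 1.26 and 1.27. The feature of MAPK3 and 1 of the 2 features of FAM76B have identifiers that differ in their first number alone, and their levels had r = 0.90 over the 16 follicles. The other feature of FAM76B reached at most r = 0.63 with any feature that shares 2 numbers in this way, and gave nearly the same difference.

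RGP1, a partner in the exchange factor of the Golgi GTPase RAB6A, had 1.06 in H893, 0.49 in 861, 0.62 in C12, 0.57 in C22 and 0.41 in C35. Its low follicles had -0.71 in follicle 46, -0.95 in 31, -0.058 in J980, -0.87 in C26 and -1.12 in C32, so J980 was closer to the middle than the other low follicles. The difference was 1.37 ± 0.20 (limma, adjusted p = 0.00682) and 1.54 without the level of J980. Its only feature shares the last 2 numbers of its identifier with a feature of ATP5F1D, with r = 0.84 between them.

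GSTA4, a glutathione transferase that clears products of lipid peroxidation, had 0.68 in H893, 0.93 in 861, 0.48 in C12, 0.048 in C22 and 0.79 in C35. The low follicles had -0.40 in follicle 46, -0.45 in 31, -0.96 in J980, -0.61 in C26 and -0.40 in C32. C22 was the exception among the high follicles but was still above every low one. The difference was 1.15 ± 0.17 (limma, adjusted p = 0.00682). With J980 and its 3 arrays left out and the follicles ranked again, follicle 27 entered the low group and GSTA4 no longer passed (0.84 ± 0.19, adjusted p = 0.272). FDPS and NSDHL also missed the threshold then (adjusted p = 0.0601 and 0.305), while MAPK3, FAM76B, RGP1 and PI16 were among the 6 genes called.

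PI16, a secreted peptidase inhibitor of fibroblasts, was the only gene called lower. It had -0.93 in H893, -0.95 in 861, -1.07 in C12, -0.73 in C22 and -0.40 in C35, against 1.19 in follicle 46, -0.074 in 31, 0.57 in J980, 0.43 in C26 and 0.37 in C32. All high follicles were below all low ones, and the middle follicles ran from -0.29 to 0.74. The difference was -1.31 ± 0.23 (limma, adjusted p = 0.0372), kept in 25 of 52 settings. Over all genes, 0.454% had every high follicle below every low one.

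Further genes of small p did not pass and are given as values. CYSTM1 differed by 0.66 ± 0.12 (limma, adjusted p = 0.063), LOC783879 by 0.58 ± 0.11 (0.12), NR2C2, an orphan nuclear receptor, by -0.44 ± 0.090 (0.12) and CARM1, an arginine methyltransferase, by -0.83 ± 0.18 (0.15). PDE6D, which carries prenylated proteins between membranes, differed by -0.32 ± 0.069, and SMAGP, an adhesion glycoprotein, by -0.70 ± 0.15. CD44, the hyaluronan receptor, differed by -0.53 ± 0.13 and TNFRSF19, a receptor of the tumour necrosis factor family, by -0.35 ± 0.084. CYSTM1 passed in 12 settings, and its feature shares 2 identifier numbers with 1 feature of FDPS, with r = 0.96 between them over the 16 follicles.

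Array ratios measured without the model of the loop gave the same directions. On 4 arrays a high and a low follicle were hybridised together: H893 with 31, C22 with C26, 861 with 46 and C12 with 46. FDPS had ratios of 0.84, 0.82, 0.98 and 0.56 on these arrays, high over low. NSDHL had 0.55, 0.76, 0.49 and 0.29, FDFT1 had 0.51, 0.66, 0.59 and 0.47, and MVD had 0.81, 0.48, 0.33 and 0.30, so each enzyme favoured the high follicle every time. MAPK3 lay between 0.97 and 1.45, FAM76B between 0.91 and 1.26, RGP1 between 1.19 and 1.63 and GSTA4 between 0.77 and 1.49. PI16 had -1.06, -1.09, -2.25 and -2.63, with both arrays of follicle 46 lowest. HMGCS1 and INSIG1 were each positive on 2 of 4 arrays. Over 8804 genes with a value on all 4 arrays, 8.23% were positive on every one and 7.84% negative on every one. These arrays also entered the fit, so they display the ratios and are no separate evidence.

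**Figure D4:**
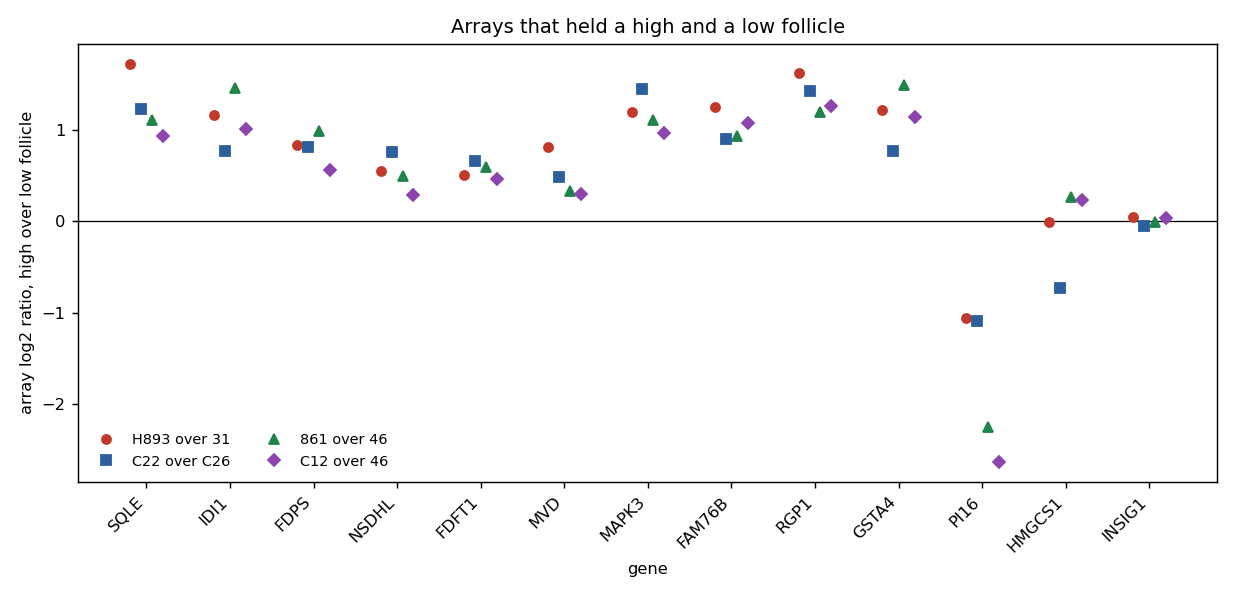
Log2 ratio of the high over the low follicle (vertical axis) on the 4 arrays that held one of each, for SQLE, IDI1 and 11 other genes (horizontal axis). The ratios of FDPS, NSDHL, FDFT1, MVD, MAPK3, FAM76B, RGP1 and GSTA4 are above 0 on all 4 arrays, those of PI16 below 0 on all 4, and those of HMGCS1 and INSIG1 fall on both sides.

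Genes that feed or use the sterol pathway were mixed. In the list of fatty acid synthesis and lipid assembly, 29 of 41 genes were measured and 0 were called, with a median difference of -0.0066. At an unadjusted p under 0.05, 6 were higher and 1 lower. Among all genes, 0.0776% were called, and 4.5% were higher and 3.92% lower at that p. The 6 higher genes include enzymes that supply acetyl-CoA units. ACLY, which makes cytosolic acetyl-CoA from citrate, had means of 0.83 ± 0.39 (SD, n = 5) and -0.42 ± 0.91, a difference of 1.25 ± 0.39 that did not pass (limma, adjusted p = 0.447); it was named after its values were seen. SLC25A1, the citrate carrier, differed by 0.37 and ACSS2, an acetyl-CoA synthetase, by 0.20, both named in the same way.

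ACACA, acetyl-CoA carboxylase, was the only member whose groups did not overlap, from 0.0083 to 0.24 in the high and from -0.29 to -0.0052 in the low follicles. Every high follicle was above every low one in 0.609% of all genes. The ACACA difference was 0.28 ± 0.077 (limma, adjusted p = 0.349). PLIN3, a lipid droplet coat protein, differed by 0.56 ± 0.13, with follicle 46 at 0.16 above the high follicle C12 at 0.037 (limma, adjusted p = 0.183). FASN and SCD, fatty acid synthase and stearoyl-CoA desaturase, differed by -0.15 ± 0.14 and -0.10 ± 0.082.

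Of 27 genes of cholesterol uptake and trafficking 19 were measured, with 0 called, 0 higher and 2 lower at an unadjusted p under 0.05. The shares over all genes were 0.0776%, 4.5% and 3.92%. The 2 lower genes were VLDLR, a lipoprotein receptor, at -0.47 ± 0.22 (-0.31 without J980) and STARD3, a sterol carrier of late endosomes, at -0.14 ± 0.057. SCARB1, the HDL receptor, differed by 0.28 ± 0.14, or 0.43 without J980, and its 4 features disagreed, from -0.40 to 0.85. Of 21 genes of efflux, esterification and oxysterols 13 were measured with a median of -0.010. CH25H, which makes the oxysterol that restrains SREBP processing, differed by -0.53 ± 0.19 (limma, adjusted p = 0.52). Of 22 genes of the prenyl, dolichol and ubiquinone branches 19 were measured with a median of 0.022. ICMT, which methylates prenylated proteins, differed by -0.52 ± 0.15, and PDSS2, of the ubiquinone side chain, by 0.22 ± 0.095.

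Genes that turn cholesterol into steroids tended to have positive differences, but 0 of 19 measured were called. In this list 15 of 19 differences were positive and the median was 0.087, with 5 higher and 2 lower at an unadjusted p under 0.05. Without the level of J980, 13 of 19 were positive and the median was 0.075. Over all genes 48.9% of differences were positive and 0.0776% were called. At an unadjusted p under 0.05, 4.5% of all genes were higher and 3.92% lower. CYP11A1, the side-chain cleavage enzyme, had -0.12 in H893, 0.45 in 861, 0.95 in C12, 0.13 in C22 and 0.26 in C35, against 0.18 in follicle 46, -0.36 in 31, -1.06 in J980, -0.43 in C26 and -0.26 in C32. The groups overlapped, since H893 was below follicle 46. The difference was 0.72 ± 0.20 (limma, adjusted p = 0.367) and 0.55 without the level of J980.

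FDX1, the electron donor of that enzyme, differed by 0.70 ± 0.18 (limma, adjusted p = 0.302), and here J980 at 0.17 was above the high follicle C22 at 0.028. GSTA1, a glutathione transferase abundant in steroid-making cells of cattle, differed by 0.59 ± 0.13, but its 3 features gave 0.99, 0.81 and -0.038. HSD3B1, which makes progesterone from pregnenolone, differed by 0.43 ± 0.14. Without the level of J980, FDX1 differed by 0.82, GSTA1 by 0.45 and HSD3B1 by 0.33. CYP19A1, the aromatase, differed by 0.032 ± 0.063. The lowest list mean, -0.13, was that of J980, and high follicles ran from -0.022 to 0.11.

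Of 25 listed markers of granulosa cells 18 were measured with 0 called, and the median difference was -0.0036 with J980 and -0.0075 without its level. AMHR2, the receptor of anti-Müllerian hormone, differed by 0.24 ± 0.087 and by 0.22 without J980. INHBA, the activin subunit, had 0.077 in H893, 1.04 in 861, 0.80 in C12, 0.056 in C22 and 0.47 in C35, against 0.52 in follicle 46, 0.17 in 31, -2.69 in J980, -0.24 in C26 and -0.12 in C32. Its difference of 0.96 ± 0.45 (limma, adjusted p = 0.593) was 0.41 without the level of J980. FST, which binds activin, went from 0.73 ± 0.38 to 0.31 in the same way, and INHA, the inhibin subunit, from -0.0079 ± 0.31 to -0.21. The list mean of high follicles was -0.023 to 0.17, that of J980 -0.40 and that of the other low follicles -0.037 to 0.15. The theca and luteal list, with 10 of 16 measured, had a median of -0.019, or 0.016 without the level of J980. With features on all 24 arrays alone that median was 0.19, and it was 0.11 with 1 feature per gene and without the array of C26 with follicle 33.

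Energy genes gave the next highest list median after the sterol enzymes. Of 75 genes of oxidative phosphorylation 65 were measured and 0 were called. In 49 of 65 the difference was positive, the median was 0.14, and 14 were higher and 2 lower at an unadjusted p under 0.05. Among all genes tested, 0.0776% were called, 48.9% had a positive difference, and 4.5% were higher and 3.92% lower at that p. NDUFA6, a subunit of respiratory complex I, differed by 0.62 ± 0.16 (limma, adjusted p = 0.302). Its high follicles all lay above its low ones, as in 0.609% of all genes. J980 at -1.07 was far below the other low follicles, and without its level the difference was 0.43. NDUFB9 of the same complex differed by 0.36 ± 0.10, and by 0.26 without the level of J980, which was -0.55. The list mean ran from 0.017 to 0.16 in the high, from -0.12 to 0.024 in the middle and from -0.19 to 0.099 in the low follicles, so the groups overlapped. The value of -0.19 was that of J980, without which the low follicles ran from -0.081 to 0.099 and the list median was 0.12.

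Cell cycle and glycolysis lists had like medians that rested on J980. The cell cycle list, with 44 of 57 genes measured, had a median of 0.13 with J980 and 0.019 without its level. Its mean was -0.45 in J980 and between -0.086 and 0.29 in the other low follicles, against -0.046 to 0.24 in the high ones. CCND1, a cyclin of early cell cycle, differed by 0.71 ± 0.29 with J980 and 0.40 without. The glycolysis and hypoxia list, with 26 of 30 measured, had a median of 0.13 with J980 and 0.040 without. ENO2, a neuronal form of enolase, differed by -0.40 ± 0.11. Its high follicles all lay below its low ones, as in 0.454% of all genes. Neither list had a gene called by limma, against 0.0776% of all genes. An unadjusted p under 0.05 was found for 3 of 44 cell cycle genes and 4 of 26 glycolysis genes, against 8.42% of all genes.

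Smaller shifts were seen in the remaining metabolic and stress lists, with 0 genes called in each. Mitochondrial fatty acid oxidation had 20 of 28 genes measured and a median of 0.052. Its lowest p was that of ETFB, an electron carrier of that pathway, at 0.34 ± 0.097, or 0.27 without the level of J980. The list of ER chaperones had 25 of 34 and a median of 0.0088 with 14 positive differences, which became -0.026 and 9 without the level of J980. Its lowest p were those of HERPUD1, of ER protein degradation, at -0.31 ± 0.13 and ERO1A, which forms disulphide bonds, at -0.35 ± 0.15. ERO1A was at 0.76 in J980 and differed by -0.20 without it. Apoptosis and atresia had 18 of 28 and a median of 0.056, and ovulation and immediate early genes had 15 of 26 and a median of -0.029, or 0.011 without J980. Interferon-induced genes had 15 of 29 and a median of -0.10, with 5 of 15 differences positive, and without the level of J980 these were -0.036 and 7 of 15. ISG15, an interferon-induced modifier, spread within both groups, from -1.22 to 2.09 and from -1.41 to 3.11, with J980 highest.

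Genes of blood cells, vessels and connective tissue had mostly negative differences. Of 42 leukocyte and erythrocyte genes 30 were measured and 26 differences were negative, with a median of -0.17 and -0.19 without J980. None was called by limma, against 0.0776% of all genes. At an unadjusted p under 0.05, 1 was higher and 4 lower, against 4.5% and 3.92% of all genes. Of the differences of all genes, 48.9% were positive. CD2, an adhesion molecule of T cells, differed by -0.80 ± 0.27, and the SE of its levels ran from 0.40 to 0.62. Its groups overlapped, since C12 at 0.16 was above the low follicles 31 at -0.065 and C26 at 0.060. CD3G and CD3D of the T cell receptor complex differed by -0.43 and -0.22. ALAS2, of haem synthesis in red cells, went the other way at 0.61 ± 0.15. The list mean ran from -0.21 to 0.0033 in the high and from -0.16 to 0.32 in the low follicles. IGHG1, the immunoglobulin heavy chain, ran from -0.93 to 0.15 in the high and from -1.10 to 1.71 in the low follicles.

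In the matrix list 27 of 35 measured differences were negative, with a median of -0.077 and -0.10 without the level of J980. No gene was called, and 5 were lower at an unadjusted p under 0.05. Among all genes, 3.92% were lower at that p and 48.9% of differences were positive. POSTN, periostin, differed by -0.77 ± 0.35, or -0.98 without the level of J980. ELN, elastin, differed by -0.27 ± 0.075, and its 4 features disagreed, at -0.30, -0.17, -0.51 and 0.12. The matrix mean ran from -0.23 to 0.085 in the high and from -0.16 to 0.19 in the low follicles. The value of -0.16 was that of J980, without which the low follicles ran from -0.045 to 0.19. Endothelial markers (15 of 22 measured) had a median of -0.075, with means of -0.14 to -0.037 in the high and -0.12 to 0.20 in the low follicles. Their highest mean was that of J980, without which the low follicles reached 0.18 and the median was -0.038. Smooth muscle and stroma (13 of 18) had a median of -0.038, with means of -0.11 to 0.040 and -0.20 to 0.11. Their lowest mean was that of J980, without which the low follicles ran from 0.014 to 0.11 and the median was -0.097, with 3 of 13 differences positive. Oocyte genes (3 of 13) had a median of -0.14. Levels are relative, so they cannot show whether a marker is absent from a follicle, and the part of these cells in the differences of FDPS, NSDHL and the other called genes was not tested.

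**Figure D5:**
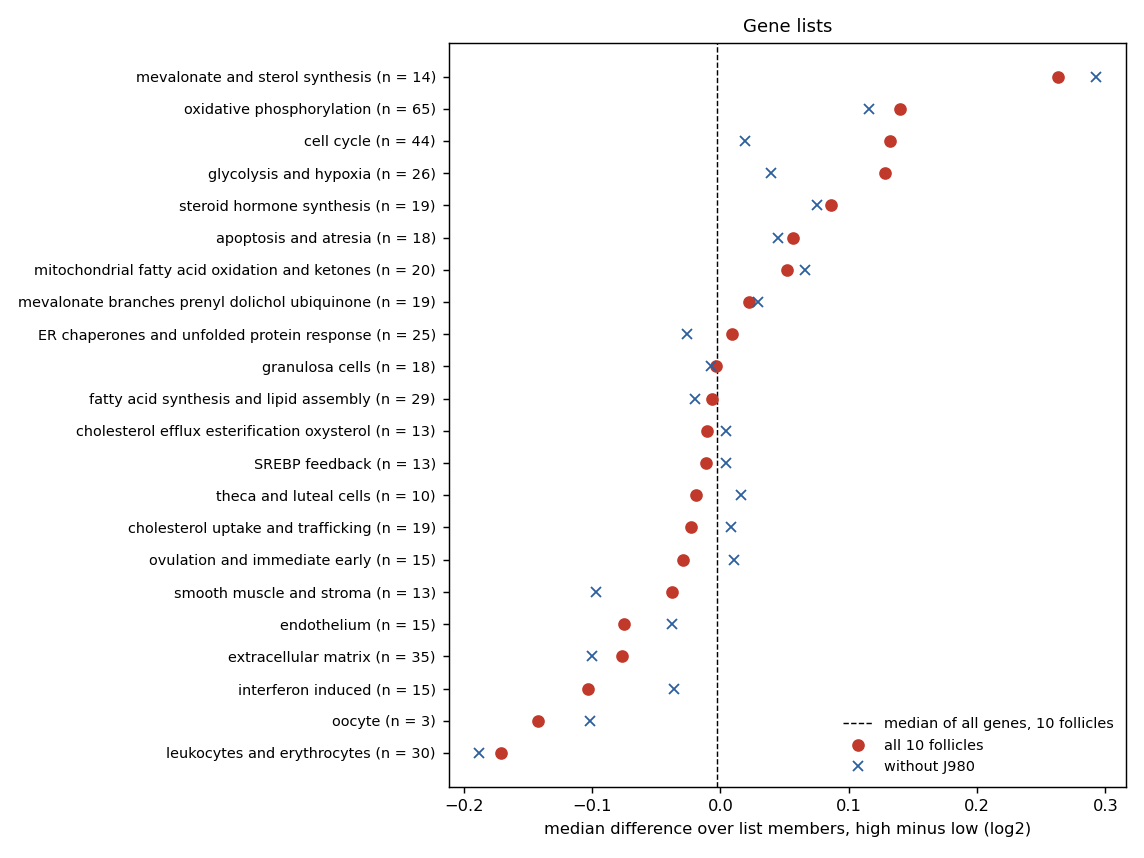
Median difference of log2 level, high minus low follicles (horizontal axis), over the measured members of each of 22 gene lists (vertical axis, n measured), with all 10 follicles (red points) and without the level of J980 (blue crosses); the dashed line is the median of all genes. Mevalonate and sterol synthesis lies farthest right at 0.26, leukocytes and erythrocytes farthest left at -0.17, and the cell cycle moves from 0.13 to 0.019 without J980.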

How the data were processed

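RNA of 16 follicles was compared on 24 two-colour arrays, whose images were analysed in GenePix Pro 4.0.1.12 per the labels. The authors deposited a log ratio per feature and array, taken here as log2. Base 10 could reach at most 4.82 for 16-bit scans and the largest absolute value was 6.32, whereas natural logs cannot be told from the values. The sources used here do not give the background correction, spot filter, within-array normalization, log base or ratio direction. No intensities were used, so signal over background is unknown. Deposited array medians lay between -0.0139 and 0.0064.

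Of 17418 features, 13605 had 1 gene symbol in the platform's old annotation, 829 had several and 2984 none; 13575 were matched to RefSeq, and 0 symbols changed. No coordinates are given, because the sources used here name no build.

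Arrays were centred on their median, features measured on 20 or more arrays were averaged per symbol, and follicle effects (1 for Cy5, -1 for Cy3) with a dye term were fitted and centred over the 16 follicles. The SE of a level is array error. High, middle and low groups were compared on follicle levels with limma 3.58.1 in R 4.3.3, two-sided, with Benjamini-Hochberg adjustment over 9024 genes, and an SE of a difference is the moderated one. The scripts were tested on simulated data. Figures used matplotlib 3.10.9 in Python 3.11.15.

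The members, the 22 lists (652 genes, 466 measured) and the tests were chosen with earlier results of these data known. Named were the called genes with those of smallest p up to 8 in each direction, all measured sterol and SREBP genes, the 2 of smallest p in each other list, 10 steroid, inhibin and uptake genes where measured, and ISG15, IGHG1 and POSTN. Other named genes were picked after their values were seen. Alternatives changed centring, scaling, the array minimum, the dye term, the feature used, the error model, group size, the ranking gene, and the arrays or follicles included.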

Additional observations from a re-analysis of the deposited data

Results flagged for a closer look

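In 10 of 176 groups of 5 follicles, covering 88 genes, 1 follicle lay far from the other 4 of its group; chance flags about 1 in 20 groups. J980 accounted for 5 of the 10. In the low group it was above the others for FDFT1 (0.13, with the next follicle at -0.36) and MVD (0.26, next -0.22). It was below them for INHBA (-2.69, next -0.24), FST (-2.05, next -0.27) and NDUFA6 (-1.07, next -0.26). Also in the low group, C32 was above the others for ZP3, an egg coat protein (0.73, next 0.051). In the high group, 861 was above the others for FST (1.11, next 0.35) and below them for SCARB1 (-0.29, next 0.093). C35 was below them for ENO2 (-0.45, next -0.13) and above them for SREBF2 (0.13, next -0.018).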

How the results depend on the processing

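The 7 calls became 2 with the 10 follicles fitted alone, 3 with the top and bottom 4, 4 with the top and bottom 6, and 449 (277 higher, 172 lower) with array error alone, which leaves out the spread between follicles. Testing all features gave 13 (12 higher). Leaving out 1 array gave 0 to 10 genes, and leaving out 1 follicle gave 5 to 10. Every other count was within 1.5 times of 7. No called gene changed sign under any of its settings: MAPK3 was kept in 50 of 51, FAM76B in 51 of 52, RGP1 in 48, FDPS in 46, GSTA4 in 45, and PI16 and NSDHL in 25 each. With features that follow another gene at the same position left out, 7 genes passed, 6 of them among the original 7; MAPK3 could not be tested there, since its only feature was one of those left out. That alternative, the test of all features, and the lists without J980 were chosen after seeing the data. No paired analysis was possible because the replicate numbers of the arrays were given in accession order and pair nothing. With 3 arrays per follicle and no intensities, small differences could not be detected.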

Other observations

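The deposited feature identifiers consist of 3 numbers, and the sources used here do not say what they mean. Pairs of features with consecutive first numbers and the same other 2 numbers were compared, leaving out pairs with the same symbol. Features without a single symbol were kept, so some pairs may be of 1 gene. Among these 14649 pairs, 39 (0.266%) had r over 0.9 across the 16 follicles, against 0.0213% of all pairs of features. For the 13 features of SQLE, IDI1, CYSTM1 and the called genes, the highest r with any feature that shares the last 2 numbers was 0.96 between CYSTM1 and 1 feature of FDPS, 0.90 between MAPK3 and 1 feature of FAM76B, and 0.84 between RGP1 and ATP5F1D. For the rest it was 0.32 to 0.74. Of the pairs named here, only MAPK3 and FAM76B had consecutive first numbers. Their r was 0.898, so none of the named pairs is among the 39. The reason for the high correlations was not tested.

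Among all features, 3 of the 13 that passed had no single gene symbol, with differences of 0.96, 1.47 and 1.26. Another 2 belonged to genes that did not pass as the mean of their features. These were GSTM3, a glutathione transferase (feature 0.91, gene 0.65 ± 0.24), and RPSA, a ribosomal protein (feature 0.47). All were picked after their values were seen.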
